A study of Mus musculus with 12 samples.

Results

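The cadherins and unclustered protocadherins described here are the genes whose symbol is Cdh or Pcdh followed by a number, with an optional x, in the deposited count files. The rule found 35 genes of the 55357 listed, 23 numbered cadherins and 12 unclustered protocadherins, and it used no measured value. They fall into 5 type I classical cadherins (Cdh1, Cdh2, Cdh3, Cdh4 and Cdh15), 13 type II cadherins (Cdh5 to Cdh12, Cdh18, Cdh19, Cdh20, Cdh22 and Cdh24), 5 other numbered cadherins (Cdh13, Cdh16, Cdh17, Cdh23 and Cdh26), 4 delta-1 protocadherins (Pcdh1, Pcdh7, Pcdh9 and Pcdh11x), 5 delta-2 protocadherins (Pcdh8, Pcdh10, Pcdh17, Pcdh18 and Pcdh19) and 3 other unclustered protocadherins (Pcdh12, Pcdh15 and Pcdh20).

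RNA was sequenced from cortex with hippocampal formation of mice at postnatal day 5, and each animal gave a caudal and a rostral library. The conditional knockout group (cKO) held animals T3, T6 and T80, in which both copies of floxed Egfr, the epidermal growth factor receptor gene, were exposed to a Nestin-driven Cre recombinase that acts in neural progenitors and the cells they give rise to. The control group held animals T4, T8 and T70, which one label describes as carrying 1 floxed and 1 normal Egfr allele and another as wild type, and whether a recombinase transgene is present in controls is not given by the labels. There were 12 libraries in 4 groups of 3 animals each. The cKO animals were 1 female and 2 males and the controls 2 females and 1 male.

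Classical cadherins are single-pass membrane proteins that bind the same cadherin on a neighbouring cell in the presence of calcium and hold on to the actin cytoskeleton through beta-catenin, p120-catenin and alpha-catenin. In the developing cortex they hold the ventricular surface together, guide migrating neurons and are laid down in areal and laminar patterns, and they are found at synapses. The delta protocadherins do not bind catenins. Several of the delta-2 members carry a motif that recruits the WAVE complex, a regulator of actin branching, and they are known for their roles in axon outgrowth and synapse formation.

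The libraries held 43810458 counts (cKO caudal T3) to 87170315 counts (cKO rostral T6), of which the 35 genes took 0.249% to 0.280%. Egfr, the deleted gene, was at 5.81, 14.6 and 9.49 CPM (counts scaled to library size) in cKO caudal cortex of T3, T6 and T80, against 45.4, 39.1 and 40.2 CPM in control caudal cortex of T4, T8 and T70. In rostral cortex it was at 10.3, 6.37 and 12.6 CPM in cKO and 41.8, 39.7 and 48.9 CPM in control. Every cKO library lay below every control library. With the 2 libraries of each animal summed, the log2 fold change of Egfr was -2.10 (SE 0.11, edgeR adjusted p = 0.0019).

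Some cKO libraries stood apart. Cortical, hippocampal and meningeal markers were present in the control libraries, with Tbr1, a transcription factor of cortical projection neurons, at 110 CPM or more in each. On an axis over 2480 genes, those called between the control regions less the genes described here, on which the mean of the control rostral libraries is 0 and that of the control caudal libraries is 1, the caudal and rostral libraries were at 0.565 and 0.859 for cKO T3, at 1.19 and -0.0718 for cKO T6 and at 0.8 and 0.642 for cKO T80, while control caudal libraries were at 0.968 to 1.04 and control rostral libraries at -0.0974 to 0.0709. The narrow control ranges follow in part from choosing the genes on these libraries. With genes and weights taken only from the other control animals, an axis chosen after seeing the data, control caudal libraries were at 0.872 to 0.999 and control rostral libraries at -0.138 to 0.164. The rostral library of T3 thus lay further towards the control caudal mean than the caudal library of T3, against their labels, and the cKO libraries are named below as labelled. Mitochondrially encoded genes took 8.18% of counts in cKO rostral T6 and 1.85% to 3.98% in the other libraries. The cKO region comparison and the genotype comparisons rest on these libraries and are given also without T3 or T6.

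The promoter windows of Pcdh8, Cdh20, Pcdh7 and Pcdh17 run from 250 bases before to 50 bases after the annotated start, 5′ to 3′ on the gene's strand, from RefSeq on GRCm38.p6, which is not the build of the count files. They are shown because the first 2 genes were higher and the other 2 lower in caudal control cortex, as described below. Pcdh8 lies at chr14:79771263-79771562 on the minus strand, Cdh20 at chr1:104768270-104768569, Pcdh7 at chr5:57717831-57718130 and Pcdh17 at chr14:84443313-84443612, the last 3 on the plus strand. Capitals mark matches to 5 motifs searched on both strands. The core that homeodomain factors bind was searched as TAATTA. The E-box of neurogenic helix-loop-helix factors was searched as CAGATG. The box bound by Sp-family factors was searched as GGGCGG. The site of nuclear receptors was searched as AGGTCA. The TATA box of core promoters was searched as TATAAA.
Pcdh8: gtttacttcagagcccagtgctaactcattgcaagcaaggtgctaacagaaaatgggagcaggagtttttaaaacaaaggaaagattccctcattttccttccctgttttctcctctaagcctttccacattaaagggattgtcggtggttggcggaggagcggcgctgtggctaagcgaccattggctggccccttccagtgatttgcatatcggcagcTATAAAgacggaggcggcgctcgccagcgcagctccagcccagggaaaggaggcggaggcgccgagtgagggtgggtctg
Cdh20: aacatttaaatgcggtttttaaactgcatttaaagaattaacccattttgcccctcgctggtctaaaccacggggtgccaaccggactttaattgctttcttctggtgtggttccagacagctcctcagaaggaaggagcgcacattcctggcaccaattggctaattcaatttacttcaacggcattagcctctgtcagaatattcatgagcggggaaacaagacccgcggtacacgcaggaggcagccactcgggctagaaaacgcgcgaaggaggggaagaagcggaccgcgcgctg
Pcdh7: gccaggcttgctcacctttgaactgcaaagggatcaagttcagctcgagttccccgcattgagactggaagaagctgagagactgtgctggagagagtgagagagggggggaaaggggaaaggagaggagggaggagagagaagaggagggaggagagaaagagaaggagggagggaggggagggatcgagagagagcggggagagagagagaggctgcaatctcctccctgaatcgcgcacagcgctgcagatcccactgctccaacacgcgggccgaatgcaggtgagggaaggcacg
Pcdh17: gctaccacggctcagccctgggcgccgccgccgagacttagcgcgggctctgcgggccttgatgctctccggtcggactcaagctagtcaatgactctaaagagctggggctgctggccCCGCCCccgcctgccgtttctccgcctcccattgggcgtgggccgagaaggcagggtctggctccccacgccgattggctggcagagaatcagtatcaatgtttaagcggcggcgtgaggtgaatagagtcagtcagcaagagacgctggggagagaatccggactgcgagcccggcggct

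In these windows the TATA box letters were found in Pcdh8 and the Sp-family box, on the reverse strand, in Pcdh17, and each window held at most 1 match, so no matches overlapped. Windows were found for 22 of the 35 genes, 25 windows in all. The Sp-family letters were in 9 of the 25, against 35.7% of all 32851 windows, the TATA box letters in 2 against 13.6%, the E-box letters in 2 against 17.2%, the homeodomain letters in 1 against 5.29% and the nuclear receptor letters in 1 against 16.3%. The median GC content was 60.3% in the 25 windows and 52.7% in all windows. A match describes these letters only.

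Per kilobase of annotated exon, Cdh2, the N-cadherin of neural progenitors and neurons, had the highest level of the 35 genes, with a mean over the 12 libraries of 35.6 CPM per kb. Pcdh9 followed with 26.4 CPM per kb, and then Pcdh1, Pcdh19, Pcdh17, Pcdh7, Pcdh10, Cdh13, Cdh11 and Cdh8 at 19.7 to 15.5 CPM per kb. In all, 12 genes had 10 CPM per kb or more, 16 had 1 to under 10, and 7 had less than 1. The genes under 1 CPM per kb were Cdh15, Cdh3, Cdh19, Cdh26, Cdh23, Cdh17 and Cdh16, among them the cadherins known from kidney (Cdh16) and from liver and intestine (Cdh17). Cdh16 did not exceed 0.027 CPM in any library and was tested only in the fits with no filter on low counts, which did not call it.

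The comparison of caudal with rostral cortex in control asks which of these adhesion genes differ in RNA between pieces of cortex with hippocampal formation. The caudal pieces also held more hippocampal and choroid plexus marker RNA, as given below. A difference between the pieces is therefore not necessarily one within the cortex. Caudal control cortex had more Pcdh8, Cdh20, Pcdh20, Pcdh1 and Cdh3 RNA and less Pcdh7, Cdh13, Pcdh15, Cdh10, Cdh18, Pcdh17 and Pcdh12 RNA than rostral control cortex. The edgeR test called these 12 of 33 tested genes, 5 higher and 7 lower, against 12.2% of all genes tested (6.3% higher and 5.88% lower). Of the 12 tested protocadherins 7 were called, and of the 21 tested cadherins 5. The median size of the log2 fold change was 0.31 over the 33 genes and 0.13 over all genes tested, while the signed medians were -0.05 and 0.00, so the genes moved both ways. At an unadjusted p under 0.05 there were 17 genes (25.8% of all genes tested), and the caudal and rostral values did not overlap for 18 (31.4% of all genes tested), 7 higher (16.3%) and 11 lower (15.1%). In bulk tissue, fewer cells of a type and less RNA per cell cannot be told apart.

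**Figure D1:**
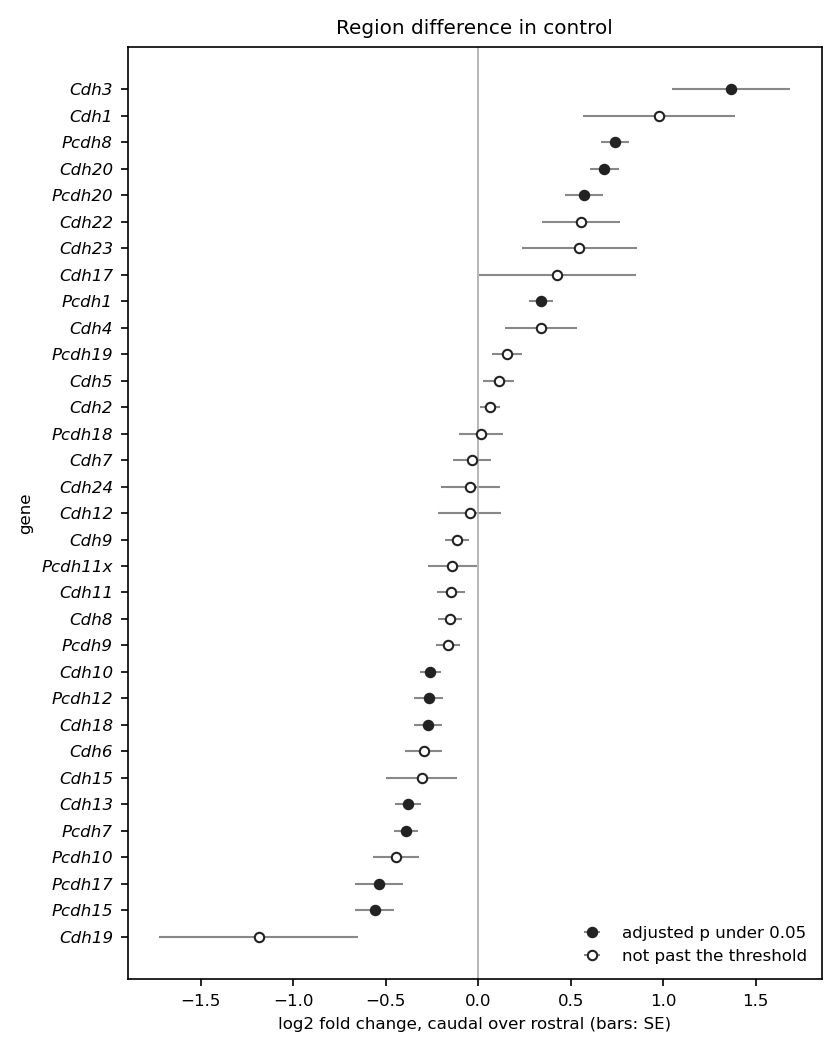
Log2 fold change of caudal over rostral control cortex for the 33 genes tested, ranked from highest (top) to lowest, with bars for the standard error. Filled points mark the 12 genes with an edgeR adjusted p under 0.05, 5 above 0 and 7 below 0, and open points the 21 others.

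The region calls differed in how much they rested on single animals. Pcdh8, Cdh20 and Pcdh7 were called whichever control animal was left out, and Pcdh8 in 10 of 10 alternative fits. Without T4 10 genes were called (8.21% of all genes tested), Cdh3, Cdh18 and Pcdh12 being lost (edgeR adjusted p = 0.075, 0.0879 and 0.179) and Pcdh10 gained. Without T8 6 were called (5.25%), of which 5 are among the 12, and without T70 also 6 (7.19%), of which 5 are among the 12. A single fit over all 12 libraries called only Pcdh8 (edgeR adjusted p = 0.0369, with 0.361% of all genes called), with log2 fold changes of nearly the same size, 0.68 for Cdh20 and -0.39 for Pcdh7. With the animal as a block 14 were called (15.4% of all genes tested), 11 of them among the 12: Pcdh17 was lost (edgeR adjusted p = 0.102) and Cdh22, Cdh4 and Pcdh10 were gained (edgeR adjusted p = 0.00568, 0.00624 and 0.0459).

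Among the delta-2 protocadherins, Pcdh8 and Pcdh17 were called in opposite directions. Pcdh8, an activity-induced protocadherin also called arcadlin that drives N-cadherin into the cell, lies at chr14:80004215-80008752 in the files (GRCm39). It was at 62.1, 60.1 and 57.5 CPM in control caudal cortex of T4, T8 and T70, against 38.2, 38.3 and 31.5 CPM in control rostral cortex. All caudal values lay above all rostral values, with a log2 fold change of 0.74 (SE 0.076, edgeR adjusted p = 0.000195) and a ratio of 1.67. Pcdh17, which lies on the same chromosome at chr14:84681003-84776442 and is known to mark corticobasal ganglia circuits and to act at presynaptic sites, was at 233, 192 and 192 CPM in control caudal cortex and 248, 318 and 332 CPM in control rostral cortex. Its groups did not overlap, but T4 contributed a caudal-to-rostral gap much smaller than the other animals (-0.54, SE 0.13, edgeR adjusted p = 0.0428). Without T8 and without T70 it was not called (edgeR adjusted p = 0.33 and 0.243).

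Pcdh10, which binds the WAVE complex and is needed for axons to grow through the ventral telencephalon, did not pass. It was at 298, 226 and 222 CPM in control caudal cortex, against 326, 318 and 372 CPM in control rostral cortex. The groups did not overlap, and the log2 fold change was -0.45 (SE 0.12, edgeR adjusted p = 0.0658). The other delta-2 genes, Pcdh18 and the X-linked epilepsy gene Pcdh19, were at 0.01 (SE 0.12) and 0.16 (SE 0.082), and neither passed.

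Of the delta-1 protocadherins, Pcdh1 was called higher and Pcdh7 lower in caudal control cortex. Pcdh7, a homophilic adhesion molecule, lies at chr5:57875309-58290572 and was at 177, 168 and 185 CPM in control caudal cortex, against 241, 243 and 211 CPM in control rostral cortex. All caudal values lay below all rostral values (-0.39, SE 0.064, edgeR adjusted p = 0.00294). Pcdh1 was at 221, 200 and 194 CPM in control caudal cortex and 174, 163 and 150 CPM in control rostral cortex. Its groups did not overlap either (0.34, SE 0.067, edgeR adjusted p = 0.00831), and without T8 it was at an edgeR adjusted p of 0.0514. Pcdh9, the most abundant protocadherin per length, was at 166, 163 and 169 CPM in control caudal cortex and 179, 206 and 173 CPM in control rostral cortex, without overlap and without passing (-0.16, SE 0.065, edgeR adjusted p = 0.136). Pcdh11x was at -0.14 (SE 0.13) and did not pass.

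All 3 of the other unclustered protocadherins were called. Pcdh20, which in mouse cortex is known for placing layer 4 neurons, lies at chr14:88702179-88708832 and was at 20.7, 27.7 and 26.8 CPM in control caudal cortex, against 17.3, 16.9 and 16.3 CPM in control rostral cortex (0.57, SE 0.10, edgeR adjusted p = 0.00612). T4 had the smallest gap, and without T70 the edgeR adjusted p was 0.109. Pcdh15, known with Cdh23 as a component of the tip links of hair cells, lies at chr10:72935174-74485569 and was at 24.5, 20.1 and 21.1 CPM in control caudal cortex and 27.4, 35.1 and 34.4 CPM in control rostral cortex (-0.56, SE 0.11, edgeR adjusted p = 0.0105). Without T8 or T70 it did not pass (edgeR adjusted p = 0.0805 and 0.154). Pcdh12, an endothelial protocadherin, was at 8.07, 8.50 and 8.06 CPM in control caudal cortex and 9.92, 9.62 and 10.2 CPM in control rostral cortex (-0.27, SE 0.078, edgeR adjusted p = 0.0467), and it passed in none of the fits that left out an animal. None of these 3 genes had overlapping groups.

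Type II cadherins moved in both directions. Cdh20, a type II cadherin of neural tissue, lies at chr1:104696254-104923206 and was at 33.0, 30.3 and 29.7 CPM in control caudal cortex, against 21.7, 18.3 and 18.1 CPM in control rostral cortex. Its caudal values all lay above its rostral values (0.68, SE 0.079, edgeR adjusted p = 0.00039, ratio 1.60). Cdh10 was at 58.7, 61.0 and 56.3 CPM in control caudal cortex and 67.1, 69.8 and 74.0 CPM in control rostral cortex (-0.26, SE 0.056, edgeR adjusted p = 0.0134). Cdh18 was at 12.7, 11.9 and 11.6 CPM in control caudal cortex and 14.5, 13.7 and 15.4 CPM in control rostral cortex (-0.27, SE 0.076, edgeR adjusted p = 0.041). Both lay lower in caudal cortex without overlap, and neither passed without T8 or T70.

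Of the other type II cadherins, 3 had groups that did not overlap and did not pass. Cdh22 was at 12.8, 7.76 and 8.27 CPM in control caudal cortex and 7.73, 6.38 and 5.56 CPM in control rostral cortex (0.56, SE 0.21, edgeR adjusted p = 0.146), with T4 highest in both pieces. Cdh8, a cadherin of prefrontal and limbic circuits, was at 115, 119 and 113 CPM in control caudal cortex and 120, 123 and 142 CPM in control rostral cortex (-0.15, SE 0.065, edgeR adjusted p = 0.175). Cdh9, known for matching synaptic partners in the hippocampus, was at 18.6, 20.3 and 20.5 CPM in control caudal cortex and 22.0, 21.7 and 20.6 CPM in control rostral cortex (-0.11, SE 0.064, edgeR adjusted p = 0.295). Cdh6, known for its sharp areal borders in embryonic cortex, was at -0.30 (SE 0.099, edgeR adjusted p = 0.0952) with overlapping groups. Cdh5, Cdh7, Cdh11, Cdh12, Cdh19 and Cdh24 were not called, with log2 fold changes of -1.19 to 0.11.

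Among type I and the remaining cadherins, Cdh3 and Cdh13 were called. Cdh13, or T-cadherin, is anchored to the membrane by lipid and lacks the catenin-binding tail. It lies at chr8:119010472-120051660 and was at 193, 168 and 154 CPM in control caudal cortex, against 227, 220 and 224 CPM in control rostral cortex (-0.38, SE 0.072, edgeR adjusted p = 0.00746). The groups did not overlap, and without T8 the edgeR adjusted p was 0.0669. Cdh3, or P-cadherin, was low, at 1.02, 0.518 and 0.936 CPM in control caudal cortex and 0.422, 0.245 and 0.304 CPM in control rostral cortex (1.37, SE 0.32, edgeR adjusted p = 0.0191), and without T70 it did not pass (edgeR adjusted p = 0.147). Cdh2 was at 281, 281 and 262 CPM in control caudal cortex and 251, 275 and 263 CPM in control rostral cortex, overlapping, with a log2 fold change of 0.06 (SE 0.052, edgeR adjusted p = 0.501).

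**Figure D2:**
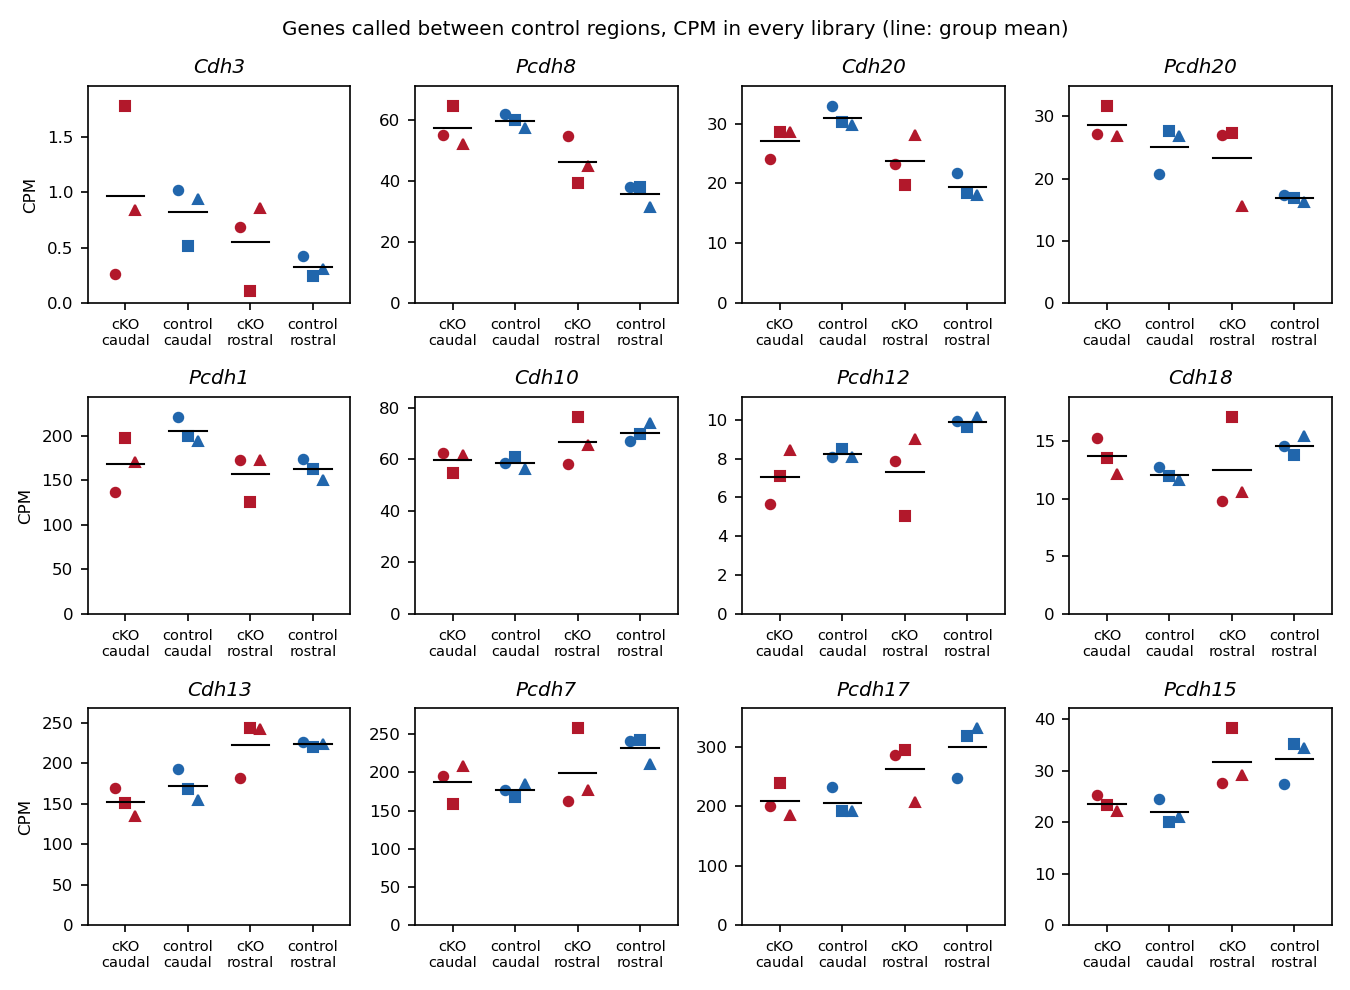
CPM of the 12 genes called between the control regions, in every library, with cKO in red and control in blue, and a line at the mean of 3 libraries. Circles, squares and triangles mark T3, T6 and T80 in cKO and T4, T8 and T70 in control. Control caudal and control rostral points do not overlap in any panel, and the genes were chosen on these control libraries.

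Markers of other cell types moved with region, where 12.2% of all genes tested were called (6.3% higher and 5.88% lower). Of 10 hippocampal markers 8 were called higher in caudal control cortex, with a summed level of 470 to 554 CPM against 311 to 335 CPM in rostral control cortex. Of 9 tested choroid plexus markers 6 were called higher, at a summed 12.1 to 220 CPM against 3.79 to 6.15 CPM. Of 8 tested oligodendrocyte markers 5 were called lower, at 197 to 203 CPM against 217 to 250 CPM. Of 10 oligodendrocyte precursor markers 3 were called lower, with overlapping sums of 1527 to 1863 CPM against 1645 to 1865 CPM. Of 12 meningeal markers 0 were called and 12 had a positive log2 fold change, at 544 to 702 CPM against 210 to 469 CPM. Of 10 endothelial markers 5 had a positive and 5 a negative log2 fold change, and 1 was called lower (Flt1, -0.33, SE 0.07). Their sums overlapped, at 252 to 290 CPM against 272 to 303 CPM. Of 10 tested striatal markers 2 were called lower, of 12 cortical projection neuron markers 2 lower and 1 higher, of 10 astrocyte and 10 interneuron markers 2 each way, and of 10 microglial markers 0. The part of these cell types in the region differences was not tested.

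Region calls among the intracellular partners lay in 2 of 3 lists. Of 18 catenins and other adherens junction genes 0 were called (12.2% of all genes tested), with log2 fold changes of -0.15 to 0.33. At an unadjusted p under 0.05 there were 4 (25.8% of all genes tested). Beta-catenin, encoded by Ctnnb1, was at 0.03 (SE 0.047) and the neuronal alpha-catenin Ctnna2 at 0.01 (SE 0.042). Of 13 genes of the WAVE complex and protocadherin partners 3 were called, all lower in caudal control cortex. They were Baiap2, a scaffold of the actin cytoskeleton (-0.36, SE 0.063), and the WAVE complex subunits Abi2 (-0.24, SE 0.049) and Cyfip2 (-0.20, SE 0.045). Of 10 tested proteases that cut cadherins 1 was called, the gamma-secretase subunit Psen2 (0.33, SE 0.083).

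In cKO animals no cadherin or protocadherin was called between caudal and rostral cortex. The edgeR test called 0 of 34, as it called 0% of all genes tested, with 3 of the 34 at an unadjusted p under 0.05 (1.66% of all genes tested), and DESeq2 called 0 of the 34 and 4 genes in all (0.0191%). The values did not overlap for 3 genes (5.67% of all genes tested), all lower in caudal cortex (3.08%). Cdh13 was at 169, 151 and 136 CPM in cKO caudal cortex of T3, T6 and T80, against 182, 244 and 243 CPM in cKO rostral cortex (-0.55, SE 0.15, edgeR adjusted p = 1). Pcdh10 was at 252, 250 and 231 CPM in cKO caudal cortex and 271, 326 and 341 CPM in cKO rostral cortex (-0.36, SE 0.12, edgeR adjusted p = 1). Pcdh15 was at 25.2, 23.3 and 22.3 CPM in cKO caudal cortex and 27.6, 38.4 and 29.2 CPM in cKO rostral cortex (-0.43, SE 0.15, edgeR adjusted p = 1). Among genes with a mean of 1 CPM or more, the standard errors had a median of 0.19 in cKO and 0.084 in control, and without T3 or without T6 the count was also 0.

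The cKO animals differed from each other in the region direction of the genes called in control. In T6, 11 of the 12 genes had the control direction, the exception being Pcdh12, beside 89% of all 2492 genes called in control. In T80 8 of 12 did, beside 59.3%, and in T3 7 of 12, beside 36.5%. Pcdh8 was at 55.1, 64.8 and 52.4 CPM in cKO caudal cortex of T3, T6 and T80, against 54.7, 39.4 and 44.9 CPM in cKO rostral cortex. The gap of T6 resembled those of the controls in size, that of T80 was smaller and T3 showed almost none. Cdh20 was at 24.1, 28.5 and 28.6 CPM in cKO caudal cortex and 23.3, 19.7 and 28.2 CPM in cKO rostral cortex, with almost no gap in T3 and T80. Pcdh7 was at 195, 158 and 209 CPM in cKO caudal cortex and 163, 259 and 177 CPM in cKO rostral cortex, so that it was lower in caudal cortex of T6 and higher in that of T3 and T80. Cdh18 was also higher in caudal cortex of T3 and T80, opposite to the controls. Cdh3 and Pcdh1 were lower in caudal cortex of T3 and nearly level in T80 (log2 differences of -0.017 and -0.02). The direction counts take the sign of any difference, however small. For Pcdh8 and Pcdh20 in T3 the log2 differences were 0.009 and 0.005.

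The remaining called genes gave the following cKO values. Pcdh20 was at 27.2, 31.7 and 26.8 CPM in cKO caudal cortex and 27.1, 27.4 and 15.6 CPM in cKO rostral cortex. Pcdh1 was at 137, 197 and 170 CPM in cKO caudal cortex and 173, 126 and 172 CPM in cKO rostral cortex. Pcdh17 was at 200, 239 and 185 CPM in cKO caudal cortex and 286, 295 and 206 CPM in cKO rostral cortex. Pcdh17 was lower in caudal cortex of each cKO animal, while the 2 groups overlapped at T6 caudal and T80 rostral, and Pcdh20 was lowest in T80 rostral, near the control rostral values. Cdh10 was at 62.4, 54.8 and 61.9 CPM in cKO caudal cortex and 58.0, 76.6 and 65.5 CPM in cKO rostral cortex. Pcdh12 was at 5.66, 7.08 and 8.42 CPM in cKO caudal cortex and 7.89, 5.04 and 8.99 CPM in cKO rostral cortex. For both genes the groups overlapped, with T3 (Cdh10) and T6 (Pcdh12) opposite in direction to the controls. Cdh18 was at 15.3, 13.6 and 12.1 CPM in cKO caudal cortex and 9.80, 17.1 and 10.5 CPM in cKO rostral cortex, and Cdh3 at 0.265, 1.78 and 0.843 CPM in cKO caudal cortex and 0.689, 0.110 and 0.859 CPM in cKO rostral cortex.

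Pcdh9, Cdh8, Cdh9 and Cdh22, which did not overlap between control regions and did not pass there, overlapped in cKO. Pcdh9 was at 199, 143 and 196 CPM in cKO caudal cortex of T3, T6 and T80, against 186, 218 and 149 CPM in cKO rostral cortex. Cdh8 was at 127, 101 and 134 CPM in cKO caudal cortex and 110, 117 and 120 CPM in cKO rostral cortex. In T6 both genes were lower in caudal cortex, the direction of the controls, and in T3 and T80 both were higher there. Cdh9 was at 23.1, 26.0 and 23.2 CPM in cKO caudal cortex and 19.6, 39.0 and 16.2 CPM in cKO rostral cortex, with the same split of the animals. Cdh22 was at 5.99, 10.9 and 6.50 CPM in cKO caudal cortex and 8.16, 7.86 and 6.12 CPM in cKO rostral cortex, higher in caudal cortex of T6 and T80 and lower in that of T3.

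**Figure D3:**
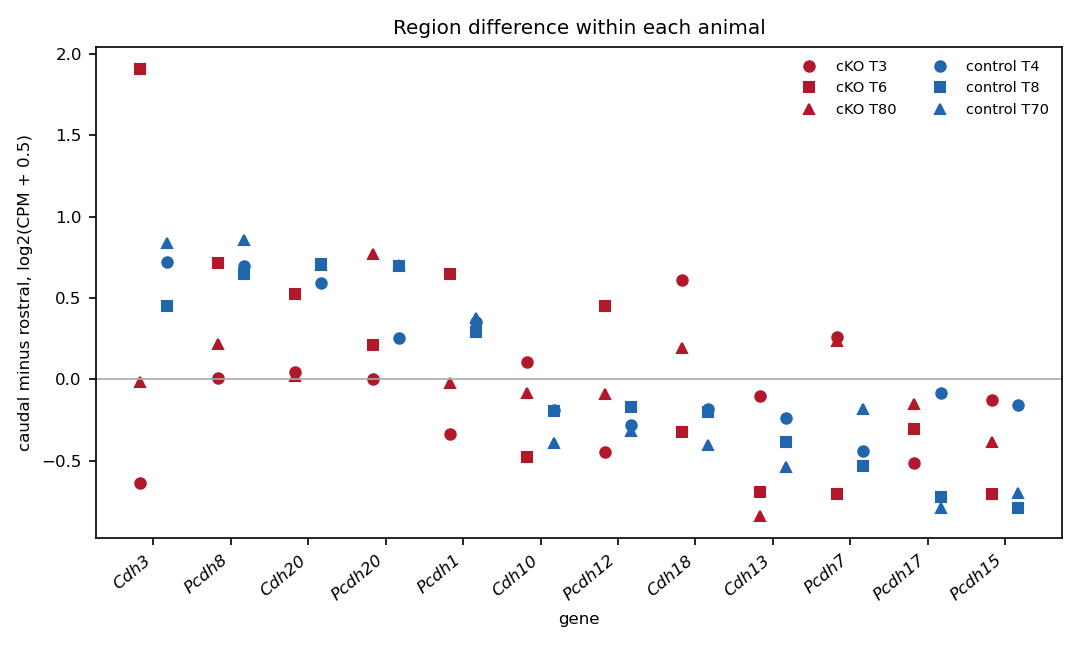
Caudal minus rostral log2(CPM + 0.5) within each animal for the 12 genes called in control, with cKO (red, left) and control (blue, right) side by side for each gene. The 3 control animals lie on 1 side of 0 for every gene, in part because the genes were chosen on these control libraries. For Pcdh8 and Cdh20, cKO T3 and T80 lie closer to 0 than every control. Both lie on the other side of 0 for Pcdh7, Cdh18, Cdh3 and Pcdh1, with T80 at -0.017 for Cdh3 and -0.02 for Pcdh1. For Pcdh20, T80 lies further from 0 than every control.

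Whether the region difference itself depended on genotype was tested with an interaction over all 12 libraries. No gene passed, 0 of 34 and 0% of all genes tested, with 2 of the 34 at an unadjusted p under 0.05 (3.55% of all genes tested). These were Cdh20, with an interaction of -0.49 (SE 0.19), and Pcdh8, with -0.43 (SE 0.18), each a smaller caudal excess in cKO and each at an edgeR adjusted p of 1. DESeq2 called 0 of the 34 and 14 genes in all (0.0648%), and voom with quality weights called Pcdh7 (0.65, limma adjusted p = 0.0379, with 0.69% of all genes called). Without T6, 3 of the 34 passed, namely Pcdh7 (0.64, edgeR adjusted p = 0.0106), Cdh18 (0.70, edgeR adjusted p = 0.0353) and Pcdh8 (-0.63, edgeR adjusted p = 0.0473), with 475 genes called in all (2.17%). The libraries of T3, whose region positions went against their labels, enter this test with and without T6. With T3 left out instead, no cadherin or protocadherin passed, and 1 gene was called in all (0.00457%). Without T6, the cKO side rests on T3, at 0.565 (caudal) and 0.859 (rostral), and T80, at 0.8 and 0.642. T6, at 1.19 and -0.0718, was the cKO animal whose libraries lay furthest apart in the direction of their labels. The part of tissue position in these calls was not tested.

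The comparison of cKO with control asks whether losing Egfr in neural cells changed the adhesion genes. No cadherin or protocadherin passed in rostral cortex (0 of 32, against 0% of all genes tested), in caudal cortex (0 of 34, against 0.0821%) or with the libraries of each animal summed (0 of 34, against 0.179%). At an unadjusted p under 0.05 there were 2 genes in rostral cortex (9.49% of all genes tested), 3 in caudal cortex (14.5%) and 4 in the sums (15.4%). They were Cdh15 and Pcdh8 in rostral cortex, Cdh9, Cdh19 and Cdh15 in caudal cortex, and Cdh15, Cdh19, Pcdh20 and Pcdh1 in the sums. DESeq2 called 0, 0 and 1 of them in the same order, and 394, 517 and 803 genes in all (1.91%, 2.5% and 3.5%). The groups did not overlap for 4 genes in rostral cortex (19.8% of all genes tested), 6 in caudal cortex (22.6%) and 4 in the sums (25.9%). In the sums, 28 of 29 genes with a mean of 1 CPM or more had a log2 fold change smaller than 0.5 in size, with standard errors of 0.063 to 0.41.

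In caudal cortex the smallest p was that of Cdh9. It was at 23.1, 26.0 and 23.2 CPM in cKO caudal cortex of T3, T6 and T80, against 18.6, 20.3 and 20.5 CPM in control caudal cortex of T4, T8 and T70. All cKO values lay above all control values, and the gene did not pass (0.29, SE 0.084, unadjusted p = 0.00857, edgeR adjusted p = 0.23).

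Markers of other cell types also moved with genotype. In the sums, 8 of 9 tested oligodendrocyte markers and 8 of 10 oligodendrocyte precursor markers were lower in cKO without overlap. This was so for 13.4% of all genes tested. Of these markers 1 and 2 were called lower, against 0.096% of all genes tested. Summed oligodendrocyte markers were at 90.2 to 166 CPM in cKO libraries and 197 to 250 CPM in control libraries, and summed precursor markers at 923 to 1766 CPM in cKO and 1527 to 1865 CPM in control. Of 10 astrocyte markers 5 were lower in cKO without overlap and 2 were called lower, at a summed 907 to 2707 CPM in cKO and 2084 to 2668 CPM in control. All 10 striatal markers had a negative log2 fold change, 3 of them without overlap and 0 called, at a summed 163 to 228 CPM in cKO and 170 to 453 CPM in control. All 10 choroid plexus and all 12 meningeal markers had a positive log2 fold change, with 0 called. Of the hippocampal, cortical projection neuron, interneuron, endothelial and microglial markers 0 were called. The part of these cell types in the genotype values of the adhesion genes was not tested.

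**Figure D4:**
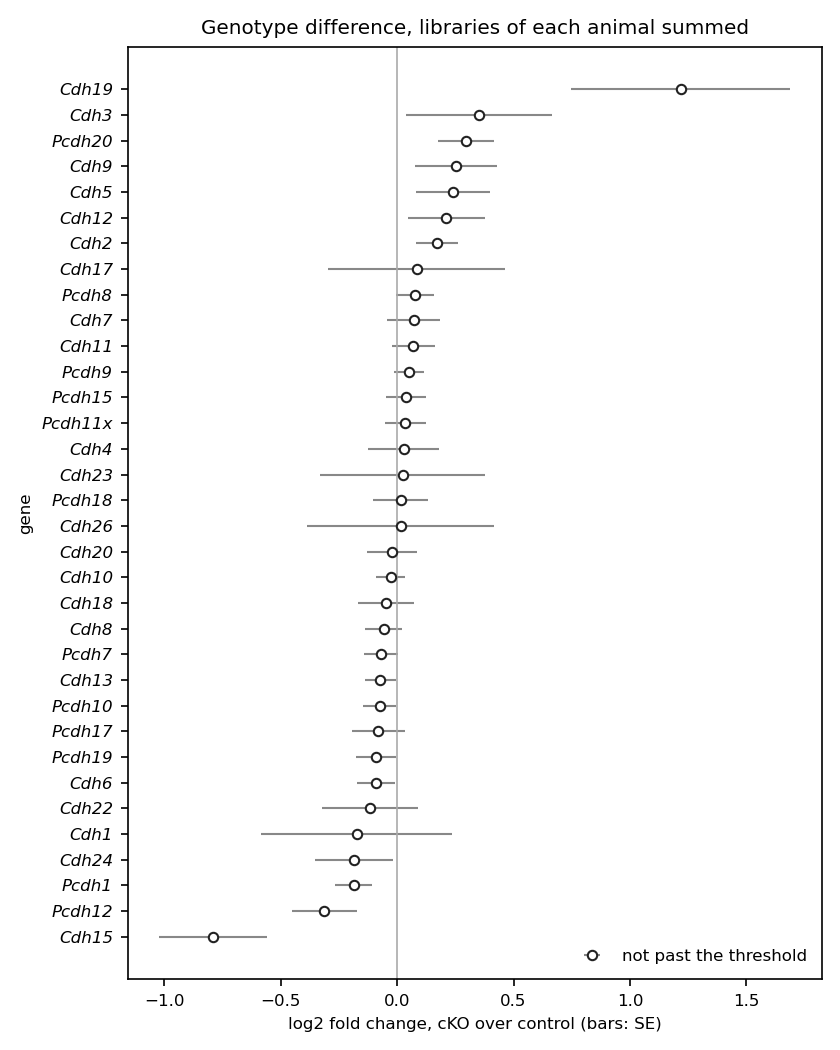
Log2 fold change of cKO over control with the 2 libraries of each animal summed, for 34 genes, ranked from highest (top) to lowest, with bars for the standard error. No gene passed an edgeR adjusted p of 0.05; Cdh15 was lowest at -0.79 and Cdh19 highest at 1.22.

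Cdh15, or M-cadherin, known from muscle and from granule cells of the cerebellum, had the smallest p of these genes in rostral cortex and in the sums. Its summed level was 2.53, 1.65 and 2.80 CPM in cKO animals T3, T6 and T80, against 4.71, 4.20 and 3.16 CPM in control animals T4, T8 and T70. All cKO animals lay below all controls, with T80 and T70 closest, and the log2 fold change was -0.79 (SE 0.23, edgeR adjusted p = 0.224). It was -0.67 (SE 0.26) in caudal and -0.88 (SE 0.26) in rostral cortex, with 2.79, 1.48 and 2.57 CPM in cKO caudal cortex against 4.45, 3.39 and 2.98 CPM in control caudal cortex, and 2.38, 1.85 and 3.04 CPM in cKO rostral cortex against 5.09, 5.02 and 3.35 CPM in control rostral cortex. In the sums DESeq2 called it (-0.79, DESeq2 adjusted p = 0.0263). Pcdh1 was at 159, 158 and 172 CPM in cKO animals and 203, 182 and 172 CPM in control animals T4, T8 and T70, where T80 and T70 were nearly level (-0.19, SE 0.078, edgeR adjusted p = 0.316). Pcdh12 was at 7.04, 5.95 and 8.72 CPM in cKO animals and 8.81, 9.07 and 9.09 CPM in control animals (-0.31, SE 0.14, edgeR adjusted p = 0.34). Cdh19, known from Schwann cell precursors, was at 0.746, 0.279 and 0.297 CPM in cKO animals and 0.275, 0.136 and 0.150 CPM in control animals (1.22, SE 0.47, edgeR adjusted p = 0.296), with T6 nearly level with T4.

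For the 10 genes with the highest level per kilobase, the log2 fold changes in the sums ran from -0.19 (Pcdh1) to 0.17 (Cdh2). Cdh2 was at 277, 347 and 288 CPM in cKO animals, against 270, 278 and 262 CPM in control animals (0.17, SE 0.092, edgeR adjusted p = 0.395), with T6 highest and T3 within the control range. Pcdh20 had a log2 fold change of 0.30 (SE 0.12, edgeR adjusted p = 0.308) with overlapping groups. Pcdh8, Cdh20 and Pcdh7, called between control regions whichever animal was left out, were at 0.08 (SE 0.082), -0.02 (SE 0.11) and -0.07 (SE 0.074) in the sums. Their signs were opposite in the 2 pieces. The sums add counts, so the library of an animal with more counts weighs more. Pcdh8 had a log2 fold change of cKO over control of 0.37 in rostral cortex (SE 0.15, edgeR adjusted p = 0.514), without overlap, and of -0.06 in caudal cortex (SE 0.089), with overlap. Cdh20 was at 0.30 in rostral cortex (SE 0.16, edgeR adjusted p = 0.555), with overlap, and at -0.19 in caudal cortex (SE 0.090, edgeR adjusted p = 0.374), without overlap. Pcdh7 was at -0.21 (SE 0.18) in rostral and 0.09 (SE 0.10) in caudal cortex, both with overlap. A p that misses the threshold does not show that these levels were equal.

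In rostral cortex Pcdh7 and Cdh18 passed once T6 was left out. Pcdh7 was at 163, 259 and 177 CPM in cKO rostral cortex of T3, T6 and T80, against 241, 243 and 211 CPM in control rostral cortex, and Cdh18 at 9.80, 17.1 and 10.5 CPM against 14.5, 13.7 and 15.4 CPM. T3 and T80 lay below every control for both genes, and T6 lay above every control. Without T6 the log2 fold changes were -0.44 for Pcdh7 (edgeR adjusted p = 0.0226) and -0.51 for Cdh18 (edgeR adjusted p = 0.0272), with 1058 genes called in all (5.01%). With T3 left out instead, neither gene passed, and 7 genes were called in all (0.0334%). With all animals, voom with quality weights called the same 2 genes (limma adjusted p = 0.0307 and 0.0477, with 4.73% of all genes called). The rostral libraries of T3 and T80 had region positions of 0.859 and 0.642, and both genes were called lower in caudal control cortex. The part of tissue position in this difference was not tested.

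Cdh1, or E-cadherin, an epithelial cadherin also found in the leptomeninges, varied most between libraries among genes above 1 CPM. It was at 0.0663, 6.82 and 8.17 CPM in cKO caudal cortex of T3, T6 and T80, against 8.47, 8.57 and 10.6 CPM in control caudal cortex. In rostral cortex it was at 7.36, 0.0548 and 13.9 CPM in cKO and 6.12, 2.11 and 5.83 CPM in control. It was nearly absent from cKO caudal T3 and cKO rostral T6. The summed meningeal markers were also lowest in these libraries, at 164 and 39.6 CPM, against 210 to 1078 CPM in the other 10. Cdh1 was not called in any main comparison, and between control regions it was at 0.98 (SE 0.41, edgeR adjusted p = 0.222) without overlap. Cdh5, the VE-cadherin of endothelial cells, was lowest in cKO caudal T3 at 20.6 CPM and highest in cKO rostral T80 at 59.8 CPM, where the summed endothelial markers were at 217 and 308 CPM. These sums were lowest at 180 CPM in cKO rostral T6, with Cdh5 at 32.3 CPM, and highest at 337 CPM in cKO rostral T3, with Cdh5 at 45.0 CPM, so the extremes fell in different libraries.

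**Figure D5:**
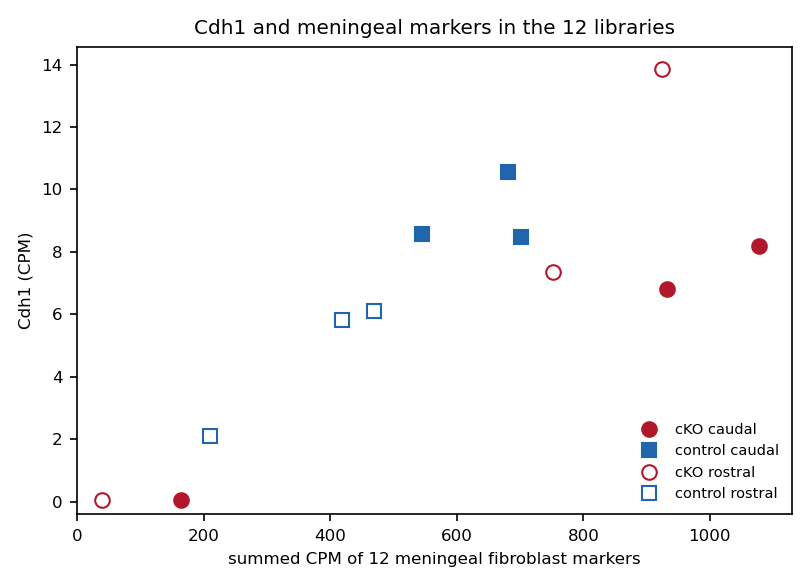
Cdh1 (CPM) against the summed CPM of 12 meningeal fibroblast markers in each of the 12 libraries; circles are cKO and squares control, filled for caudal and open for rostral. The 2 libraries near 0 for Cdh1, cKO rostral T6 and cKO caudal T3, also have the lowest marker sums.

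The partner lists had 0 calls by genotype. Of the 18 catenins and adherens junction genes, the 13 genes of the WAVE complex and protocadherin partners and the 10 tested proteases, 0 passed in caudal cortex, rostral cortex or the sums. Over all genes tested the shares were 0.0821%, 0% and 0.179% in the same order. At an unadjusted p under 0.05 the sums held 2, 1 and 0 of the genes of these lists, against 15.4% of all genes tested. Ctnna2, the alpha-catenin of neurons, was at -0.16 (SE 0.056, edgeR adjusted p = 0.277) in the sums, without overlap between the groups.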

How the data were processed

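RNA was extracted from 12 tissue pieces of 6 mice, and KAPA mRNA libraries were read as paired ends on a NovaSeq, per the labels' protocols. Per the submitters' processing notes, STAR 2.7.8a, featureCounts 2.0.3 and the build GRCm39 were used. The strand setting, annotation release and treatment of shared reads were not given in the sources used here, so overlapping and antisense genes may not be told apart. The deposited values are expected counts per gene: 9.69% to 14.3% of values in a library were fractional. They were rounded to whole numbers before testing.

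Groups came from the labels, and a shared T number was taken to mean a shared animal. Correlations of an animal's caudal and rostral deviations across genes were -0.0122 (T3), 0.00416 (T6), 0.542 (T80), 0.35 (T4), 0.363 (T8) and 0.391 (T70). The labels do not say that the animals came from separate litters. Each comparison was fitted over all genes with edgeR 4.0.16 in R 4.3.3 (filterByExpr with a minimum count of 10 and a total of 15, TMM, robust quasi-likelihood F test, Benjamini-Hochberg adjustment, threshold 0.05), without an animal block. SE is the size of the log2 fold change divided by the square root of F. CPM values are scaled by TMM over all 12 libraries, and animal sums separately. Alternatives were DESeq2 1.42.0, limma 3.58.1 voom with quality weights, RLE scaling, no filter, 1 CPM in 3 libraries, each animal left out, sex as a covariate, the animal as a block and 1 fit over 12 libraries.

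Values in every library are given for Egfr and, among the 35 genes, for those past the threshold in any comparison and those of 1 CPM or more whose groups did not overlap in the control regions or the animal sums. From partner lists, called genes are named with their fold change, up to 4 a comparison, and marker lists are given as counts and sums. Cdh2, Cdh5, Cdh6, Cdh19, Flt1, Ctnnb1, Ctnna2 and the caudal genotype values of Cdh9 fall outside this rule and were named after their values were seen. The genes and lists were chosen with earlier results of these data known.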

Additional observations from a re-analysis of the deposited data

How the results depend on the processing

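For caudal against rostral cortex in control, the count of cadherin and protocadherin genes called was 12 (12.2% of all genes tested). It was between 6 and 10 when an animal was left out (5.25% to 8.21%), and 1 in a single fit over 12 libraries (0.361%). With DESeq2, RLE scaling, voom, no filter or a 1 CPM filter it was 11 to 15. In the same order, 13.8%, 12.3%, 15.7%, 9.05% and 13.8% of all genes tested were called. With the animal as a replicate block it was 14 (15.4%). The block gave 0 calls for cKO regions and for the interaction (0% of all genes tested in both). For cKO against control, the count in rostral cortex was 0 (0% of all genes tested) and 2 with voom (4.73%). It was 0 to 2 there when an animal was left out (0% to 5.01%). In caudal cortex it was 0 (0.0821%) and 0 to 0 when an animal was left out (0% to 0.768%). In the animal sums it was 0 (0.179%), 1 with DESeq2 (3.5%) and 0 to 0 when an animal was left out (0.00424% to 2.92%). For cKO regions it was 0 and 0 to 0 when an animal was left out. For the interaction it was 0 (0% of all genes tested), 1 with voom (Pcdh7, 0.69%) and 0 to 3 when an animal was left out (0% to 2.17%). Sex as a covariate gave 0 calls of these genes by genotype. The log2 fold changes of the 12 genes called between control regions kept their sign in all of these fits. Counts over all genes moved more: by genotype 0, 17 and 41 genes in rostral cortex, caudal cortex and the sums became 974, 373 and 736 with voom, and for the control regions 2492 became 78 in the single fit. The causes were not tested. Groups of 3 animals and the spread of the cKO libraries limit the precision.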
